A study of Mus musculus with 6 samples.

Results

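Described here are 5 genes of striated muscle, Lrtm1, Myot, Smco1, Aqp4 and Myh2, as measured by RNA sequencing of scar tissue from infarcted mouse left ventricles. They are 5 of 14798 genes in the deposited table, and all 5 passed the filter on low counts that left 14771 genes for testing. They were chosen for large differences between Sox9-deletion and control scars in CPM, read counts scaled to library size, from the same 6 libraries. That difference is therefore given as a description, with no test. The working name of the set speaks of a rise after deletion, and this holds for 4 of the genes, whereas Myh2 was lower in deletion scars.

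The deletion mice carried floxed Sox9 alleles with a Cre labelled Per-Cre (genotype given as Sox9 fl/perCre), which the series text describes as removing Sox9 in fibroblasts alone, and the controls were Sox9 fl/fl mice for which no Cre is named. All mice had the left anterior descending coronary artery ligated at 10 weeks of age, and scars were taken 6 weeks later, with donors given as 14 to 16 weeks old. Each group has 3 libraries. Whether the 3 libraries of a group are 3 animals is not labelled, so any p below reflects only how far these libraries spread, which could be technical. The genotype name does not say whether 1 or both Sox9 alleles were floxed in the Cre mice, and scar cells in which the Cre is silent keep the gene.

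Cardiomyocytes and skeletal muscle fibres contract through sarcomeres, in which myosin heavy chains pull on actin filaments anchored at Z-discs. Adult mouse ventricle uses mainly the alpha heavy chain, encoded by Myh6, whereas skeletal fibres use other heavy chains from a cluster of neighbouring genes. A healed infarct scar is mostly matrix and fibroblasts with surviving cardiomyocytes at its border. In such bulk tissue, more cardiomyocytes and more RNA of a gene per cardiomyocyte cannot be told apart, and for this reason each gene is also given as a ratio to Myh6 within the same library.

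RefSeq promoter sequences (GRCm38.p6) were matched for Lrtm1, Smco1 and Myh2. The 250 bases before the annotated start are printed to set the 2 genes that were higher in deletion scars beside the 1 that was lower. The RefSeq start of Smco1, at 32271480, lies upstream of the start in the deposited table. Capitals mark matches to the motifs searched on both strands.
Lrtm1, chr14:29017958-29018207, plus strand: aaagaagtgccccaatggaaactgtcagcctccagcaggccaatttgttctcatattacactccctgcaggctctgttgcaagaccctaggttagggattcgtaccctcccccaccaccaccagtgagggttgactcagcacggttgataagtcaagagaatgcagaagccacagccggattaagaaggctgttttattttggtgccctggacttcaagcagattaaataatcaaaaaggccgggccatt
Smco1, chr16:32271230-32271479, plus strand: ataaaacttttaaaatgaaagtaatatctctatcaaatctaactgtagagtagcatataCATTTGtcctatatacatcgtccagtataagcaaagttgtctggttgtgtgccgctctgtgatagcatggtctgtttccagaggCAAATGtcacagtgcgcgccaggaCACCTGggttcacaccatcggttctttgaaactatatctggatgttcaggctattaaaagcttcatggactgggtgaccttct
Myh2, chr11:67170777-67171026, plus strand: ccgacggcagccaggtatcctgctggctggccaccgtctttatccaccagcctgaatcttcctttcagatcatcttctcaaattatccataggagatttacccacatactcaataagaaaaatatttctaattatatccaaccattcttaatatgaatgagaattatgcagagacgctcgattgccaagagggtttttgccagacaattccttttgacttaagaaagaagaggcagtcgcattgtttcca

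The E-box CANNTG, the site of basic helix-loop-helix factors, matched at 3 places in the Smco1 window, starting 191, 107 and 83 bases before the start, and nowhere in the windows of Lrtm1 and Myh2. It occurs in 66.2% of the 32851 promoter windows of that length in the table. TATAAA (12.4% of windows), CATTCC (12.6%), ACAAAG, a core letter order of SOX sites (16.5%), and the MEF2 (0.508%) and CArG (1.47%) motifs matched in none of the 3 windows. No 2 matches overlapped. Other letter orders of SOX sites were not searched, so the lack of this match does not show that the windows hold no SOX site. For MEF2 and CArG too, the lack of matches covers only the pattern searched. These are matches of letters in a short window, and they say nothing about binding.

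The genes lie on 4 chromosomes (mm10 coordinates of the deposited table). Lrtm1 (NM_176920) is on chromosome 14 from 29018208 to 29033642, Smco1 (NM_183283) on chromosome 16 from 32271609 to 32274779 and Myh2 (NM_001039545) on chromosome 11 from 67171027 to 67197517. Myot (NM_001033621) and Aqp4 (NM_001308645) are both on chromosome 18, from 44334074 to 44355722 and from 15389394 to 15410982. In GENCODE vM21, Lrtm1 has 3 exons in each of 3 transcripts and lies on the plus strand inside the calcium channel subunit gene Cacna2d3, which runs on the minus strand from 28904943 to 29721864, with no shared exonic base. Myot has 10 exons, Smco1 has 3 and Myh2 has up to 40. Myh2 shares exonic bases with 9430073C21Rik on the opposite strand, and the other 4 genes share none with any gene. The use of strand in counting is not given in the sources used here, and reads of Myh2 and its antisense partner cannot be told apart.

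Total counts ran from 22666770 to 48515962 in deletion libraries and from 18538171 to 55523974 in control libraries. Every count of replicates 2 and 3 of both groups was even, against 49.3% of genes in deletion replicate 1 and 49.9% in control replicate 1, and a doubling of these totals was not tested. Rn45s, a ribosomal precursor, was at 22484 CPM in deletion replicate 1 and 12176 CPM in control replicate 1, against 623 to 1004 CPM in replicates 2 and 3. Control replicate 3 had 812 CPM of Xist, a marker of female cells, where the others had 0.844 to 7.61 CPM. The same library had 0.596 CPM of Ddx3y, a Y chromosome gene, where the others had 122 to 146 CPM. Sox9 itself, the targeted gene, was at 42.1, 51.7 and 55.8 CPM in deletion replicates 1 to 3, against 71.1, 75.8 and 67.7 CPM in control replicates 1 to 3, so every deletion library was below every control library.

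Lrtm1 encodes a membrane protein with leucine-rich repeats and a single transmembrane span. It had the highest mean CPM of the 5 genes in each group, although control replicate 2 held less Lrtm1 than Myh2. Its level was 1218, 403 and 319 CPM in deletion replicates 1 to 3, against 108, 10.3 and 42.2 CPM in control replicates 1 to 3. The lowest deletion library had 2.94 times the level of the highest control library, and control libraries differed among themselves by as much as 10.6-fold. Group means were 647 ± 496 and 53.6 ± 50.1 CPM (deletion and control, SD, n = 3 each), a log2 difference of 3.60 ± 0.95 (SE), the third largest of the 14771 genes. In mean log2 CPM the difference was of similar size within both subsets of libraries, 3.49 between the replicate 1 libraries and 4.10 between replicates 2 and 3. A fit with edgeR to replicates 2 and 3 alone gave 3.76. Subset values of the other genes are likewise differences in mean log2 CPM unless edgeR is named. Per kilobase of its 7313-base transcript Lrtm1 stood at 88.4 CPM in deletion scars and 7.33 CPM in controls, against 5380.4 and 2918 CPM per kilobase for Myh6. The gene it is nested in, Cacna2d3, was at 1.64, 0.699 and 1.21 CPM in deletion scars and at 0.612, 0.695 and 0.563 CPM in controls.

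Smco1 encodes a small single-pass membrane protein with coiled-coil domains. Its level was 23.5, 6.03 and 3.70 CPM in deletion replicates 1 to 3, against 1.34, 0.914 and 1.39 CPM in control replicates 1 to 3. Controls differed by at most 1.52-fold, whereas deletion libraries spread over 6.34-fold with replicate 1 the highest. The groups did not overlap, with the lowest deletion library at 2.66 times the level of the highest control. The log2 difference was 3.18 ± 0.74 (SE), and it was 1.998 when deletion replicate 1 was left out. In mean log2 CPM it was 4.09 between the replicate 1 libraries and 2.02 between replicates 2 and 3, where edgeR gave 2.06.

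Aqp4 encodes a water channel known from astrocyte end-feet and from the membrane of fast skeletal fibres, where it is anchored to the dystrophin-associated complex. Per kilobase it stood at 0.325 CPM in deletion scars, close to Myh2 at 0.303 CPM, and at 0.0469 CPM in controls, the lowest of the 5 genes. Deletion replicates 1 to 3 had 51, 44 and 76 counts, or 2.69, 0.962 and 1.53 CPM, against 4, 16 and 14 counts, or 0.223, 0.292 and 0.232 CPM, in control replicates 1 to 3. The groups did not overlap, and the lowest deletion library was 3.29 times the highest control library. For the 4 counts of control replicate 1 the exact 95% Poisson interval was 0.0588 to 0.552 CPM before TMM scaling, and for the 44 counts of deletion replicate 2 it was 0.706 to 1.30 CPM. These intervals cover counting error only. They would be too narrow if counts were doubled. The log2 difference was 2.74 ± 0.52 (SE). In mean log2 CPM it was 3.34 between the replicate 1 libraries and 2.03 between replicates 2 and 3, where edgeR gave 2.23.

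Myot encodes myotilin, a Z-disc protein that binds alpha-actinin and filamin. Its level was 163, 15.4 and 17.4 CPM in deletion replicates 1 to 3, against 28.2, 2.56 and 3.48 CPM in control replicates 1 to 3. The groups overlapped, since control replicate 1 was above deletion replicates 2 and 3. Within each subset of libraries the difference was nearly the same, with a log2 value of 2.53 between the replicate 1 libraries and 2.44 between replicates 2 and 3. Over all libraries it was 2.55 ± 1.31 (SE), but 0.56 without deletion replicate 1 and 4.43 without control replicate 1.

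Myh2 encodes the fast skeletal myosin heavy chain IIa. Its level was 1.90, 1.70 and 1.89 CPM in deletion replicates 1 to 3, against 16.5, 16.3 and 3.15 CPM in control replicates 1 to 3. Deletion libraries agreed within 1.11-fold, and controls spread over 5.25-fold. The lowest control, replicate 3, is the 1 library with high Xist, and it was 1.66 times the highest deletion library. The log2 difference was -2.71 ± 0.62 (SE). In mean log2 CPM it was -3.09 between the replicate 1 libraries and -1.97 between replicates 2 and 3, where edgeR gave -2.45.

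**Figure D1:**
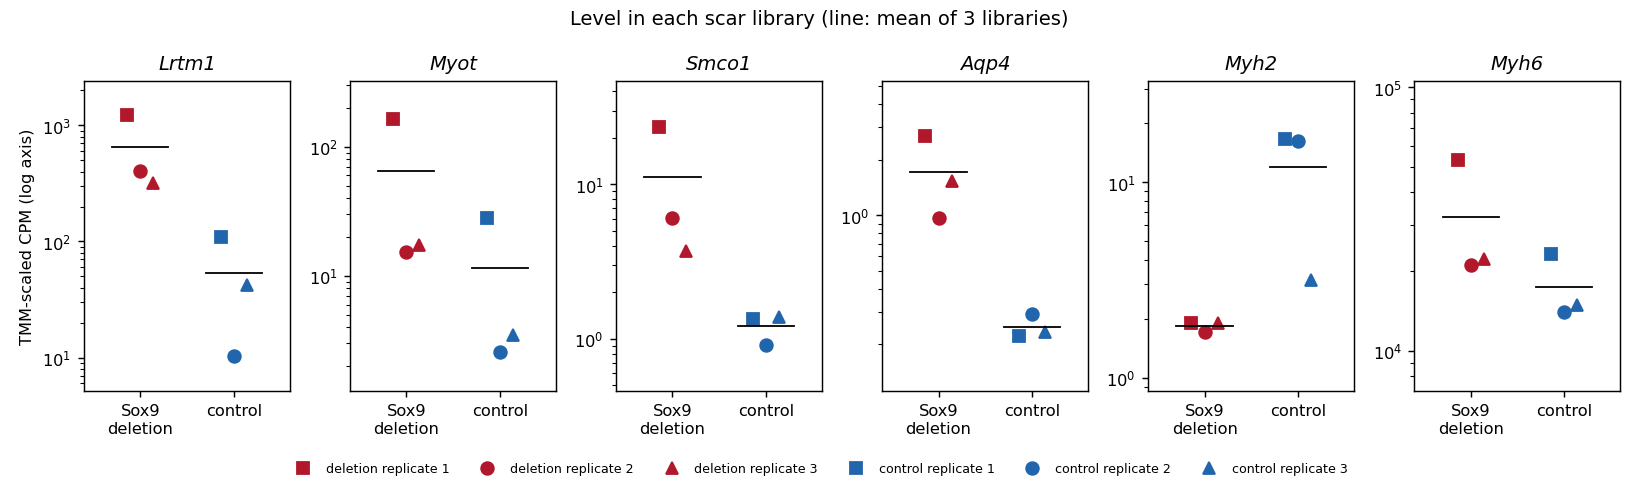
TMM-scaled CPM (log axis, scaled separately for each gene) of the 5 genes and of Myh6 in each library, with deletion scars in red and controls in blue, symbols for the replicate number and a line at the mean of 3 libraries. Lrtm1, Smco1 and Aqp4 separate the groups upward and Myh2 downward, whereas Myot and Myh6 overlap because control replicate 1 (28.2 and 23326 CPM) lies above deletion replicates 2 and 3.

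Thus the groups did not overlap in 3 of the 5 genes with deletion scars higher and in 1 with deletion scars lower. Over all genes tested the same held for 8.87% with deletion scars higher and 8.6% lower. Since the genes were picked on this contrast, nothing is read from that count. In the edgeR quasi-likelihood fit of genotype, 0% of genes passed an adjusted p of 0.05 (1232 genes, 8.34%, had an unadjusted p below 0.05, and DESeq2 called 51).

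**Figure D2:**
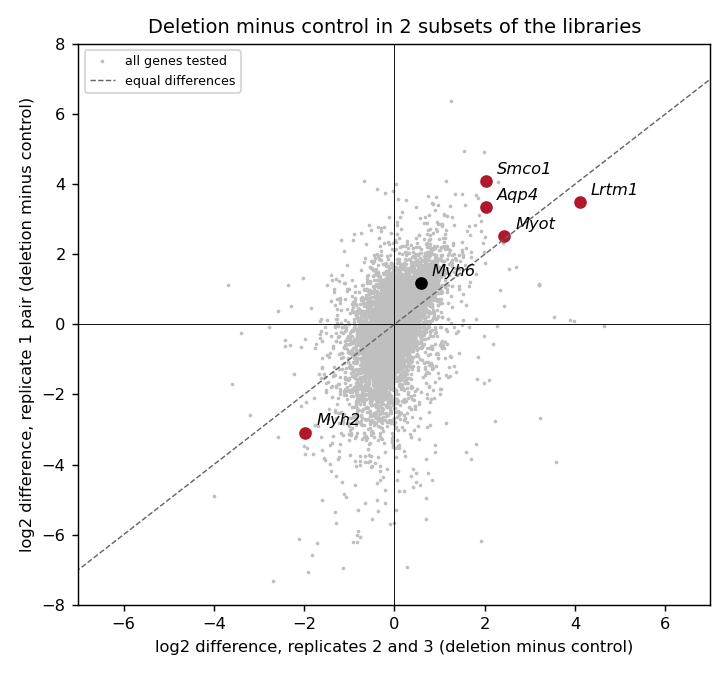
Log2 difference (deletion minus control) between the replicate 1 libraries (vertical) against that between replicates 2 and 3 (horizontal) for all 14771 genes (grey), the 5 genes (red) and Myh6 (black). Lrtm1 and Myot lie near the dashed line of equal differences, while Smco1, Aqp4 and Myh2 lie farther from 0 in the replicate 1 libraries than in replicates 2 and 3.

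Myh6 was at 53109.8, 21118 and 22199 CPM in deletion replicates 1 to 3, against 23326, 14019.7 and 14945 CPM in control replicates 1 to 3, a log2 difference of 0.88 ± 0.49 (SE, edgeR adjusted p = 0.565). Set against Myh6, Lrtm1 had 229, 191 and 144 reads per 10000 Myh6 reads in deletion replicates 1 to 3 and 46.5, 7.33 and 28.2 in control replicates 1 to 3. Its mean ratio was 188 ± 42.9 in deletion scars and 27.3 ± 19.6 in controls (SD, n = 3 each), 6.87-fold higher. The 3 deletion libraries were closer to each other on this scale than in CPM, and deletion replicate 1 no longer stood apart.

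For Smco1 the ratio was 4.42, 2.86 and 1.67 reads per 10000 Myh6 reads in deletion scars, against 0.573, 0.652 and 0.931 in controls. For Aqp4 it was 0.507, 0.455 and 0.689 in deletion scars, against 0.0954, 0.209 and 0.155 in controls. Both kept separate groups, with mean ratios 4.15-fold and 3.60-fold higher in deletion scars. For Myot the ratio was 30.7, 7.31 and 7.83 in deletion scars, against 12.1, 1.83 and 2.33 in controls, so control replicate 1 again exceeded deletion replicates 2 and 3. For Myh2 it was 0.358, 0.807 and 0.852 in deletion scars, against 7.09, 11.6 and 2.11 in controls, with separate groups and a mean 10.3-fold higher in controls.

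Differences in log2 ratio were 3.12 for Lrtm1, 1.93 for Smco1, 1.68 for Myot, 1.68 for Aqp4 and -3.13 for Myh2. Of the 14770 genes other than Myh6, Lrtm1 had the largest log2 ratio difference, Smco1 the sixth largest, and Myot and Aqp4 were at places 14 and 15, with Myh2 at place 25 from the bottom. Groups did not overlap in this ratio, with deletion scars higher, in 0.575% of genes, and with deletion scars lower in 24.1%. The denominator itself was higher in deletion scars by 0.78 in mean log2 CPM. This same amount is taken from every gene, so the places above are those of the difference in mean log2 CPM. The genes were picked on the CPM difference, so nothing is read from these places. With the mean of the other ventricular cardiomyocyte genes as the denominator the differences were 3.04, 1.85, 1.61, 1.61 and -3.20 in the same order, and with Actc1, the cardiac actin gene, 3.08, 1.89, 1.65, 1.65 and -3.16. Without single libraries the Lrtm1 difference ran from 2.35 (without control replicate 2) to 3.68 (without control replicate 1). That of Myot ran from 1.01 (without deletion replicate 1) to 2.53 (without control replicate 1). For Myh2 it ran from -3.82 (without control replicate 3) to -2.60 (without control replicate 2), and for Smco1 and Aqp4 from 1.59 to 2.29 and from 1.39 to 1.92.

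**Figure D3:**
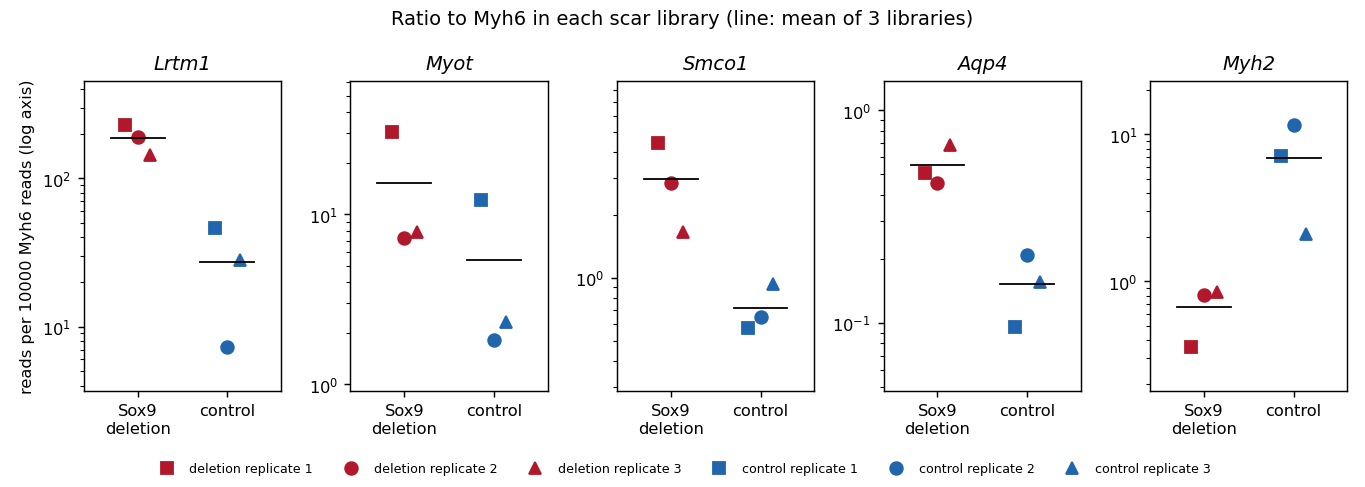
Reads of each gene per 10000 Myh6 reads in the same library (log axis, scaled separately for each gene), with deletion scars in red, controls in blue and a line at the mean of 3 libraries. Deletion and control libraries separate for Lrtm1, Smco1, Aqp4 and Myh2, and overlap for Myot, where the replicate 1 library is the highest of each group.

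The genes were also compared between replicate 1 and replicates 2 and 3, a split that runs across both genotypes. It was not the contrast used to choose them, but it draws on the same libraries. A high value in deletion replicate 1 also raises the deletion mean on which they were picked. The split of Myot was known beforehand, so its p is no independent support. In a fit with genotype as a term, 9.45% of genes passed an adjusted p of 0.05 with replicate 1 higher and 4.83% with replicate 1 lower. Myot passed, with a log2 difference of 3.27 ± 0.14 (SE, edgeR adjusted p = 0.00271), being 9.93 times the mean of replicates 2 and 3 in deletion scars and 9.35 times in controls. Its call was lost without deletion replicate 2 (edgeR adjusted p = 0.0584) or deletion replicate 3 (edgeR adjusted p = 0.0597), where 0 and 1 of all genes were called, and the adjusted p ranged from 1.99e-69 with DESeq2 to 0.0597 over the alternatives. Myh6 passed too (edgeR adjusted p = 0.0278), with replicate 1 at 2.45 times the mean of replicates 2 and 3 in deletion scars and 1.61 times in controls. Whether the 2 genes differed from each other in this was not tested.

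The other 4 genes did not pass. Lrtm1 differed by 1.90 ± 0.49 (SE, edgeR adjusted p = 0.0539), at 3.37 times in deletion scars and 4.13 times in controls. This p ranged from 0.0224 with DESeq2 to 0.150 without deletion replicate 3. Smco1 differed by 1.47 ± 0.51 (SE, edgeR adjusted p = 0.0997; range 0.0255 to 0.254), with replicate 1 at 4.83 times the others in deletion scars and 1.16 times in controls. Aqp4 differed by 0.65 ± 0.49 (SE, edgeR adjusted p = 0.380) and Myh2 by 0.47 ± 0.63 (SE, edgeR adjusted p = 0.626). What replicate 1 shared apart from its number and its odd counts is not given in the labels. With the counts of replicates 2 and 3 halved, Myot differed by 3.27 (edgeR adjusted p = 0.00226), and 2185 of all genes were called. Scaling to library size largely absorbs such a change. Any other part of the counting in these differences was not tested.

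The authors' deposited normalised values handle this split differently from CPM. In the authors' deposited table Myot was at 1791, 1527 and 1719 in deletion replicates 1 to 3, against 313, 259 and 356 in control replicates 1 to 3, so the groups separated there and replicate 1 did not stand apart. Divided by CPM, the deposited Myot values came to 11.0, 99.0 and 98.9 in deletion scars and 11.1, 101 and 102 in controls, a factor that set replicate 1 apart and was alike in both genotypes. For Lrtm1 this factor was 17.6 and 17.7 in the replicate 1 libraries and 70.6 to 72.6 in the others, and for Myh2 31.9 and 31.3 against 48.1 to 49.4. Aqp4, the gene with the fewest counts, was less even, at 33.9 in deletion replicate 1 and 41.6 in control replicate 1, against 46.5 to 55.5 in the other libraries. The deposited values thus differ from scaled counts by a factor that depends on the gene and sets replicate 1 apart, and the step behind it is not given in the sources used here. Their log2 fold changes, in the authors' deposited table, were 3.66 for Lrtm1, 2.71 for Smco1, 2.47 for Aqp4, 2.44 for Myot and -2.63 for Myh2. The authors' deposited table gives a NOISeqBIO probability of 1 or 0.999997 for each of the 5, and a probability above 0.95 for 79.0% of all genes.

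**Figure D4:**
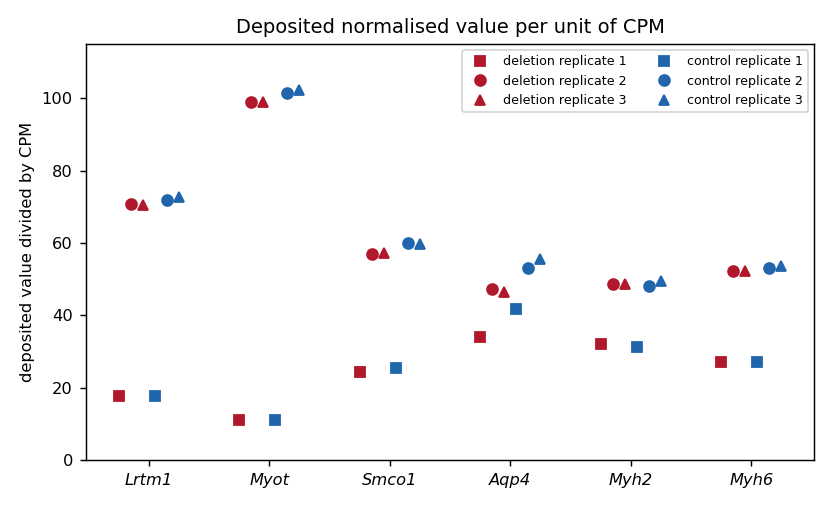
Deposited normalised value divided by TMM-scaled CPM for each gene and library, with deletion scars in red, controls in blue and replicate 1 as squares. Squares of both groups lie below the other symbols for every gene shown, by the widest margin for Myot (11.0 and 11.1 against 98.9 to 102), and for Aqp4 the squares are apart from each other (33.9 in deletion and 41.6 in control, against 46.5 to 55.5).

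Across the 6 libraries the 4 genes that were higher in deletion scars followed each other and Myh6 in log2 CPM, which is partly fixed by how they were chosen. Pearson's r was 0.98 between Myot and Myh6, 0.92 between Smco1 and Aqp4, 0.91 between Lrtm1 and Smco1 and 0.72 between Myot and Aqp4, and between -0.76 and -0.38 for Myh2 with these 4. With each group's mean removed, r was 0.96 for Myot with Myh6, 0.88 for Lrtm1 with Myot and 0.21 for Lrtm1 with Aqp4. These points share libraries and depth.

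The genes most like each of the 5 were taken by Pearson's r of log2 CPM over 6 libraries among 13201 or 13202 candidates. They differed far less between the groups, which follows from the choice. The 5 genes were picked for large differences, and r takes no account of size. Closest to Lrtm1 were the phospholipase gene Pla2g16 (r = 0.99), Trmu and Fam166a, with log2 differences of 0.54, 0.22 and 0.73. Closest to Smco1 were Stard7, Strip2 and the L-type calcium channel gene Cacna1c (r from 0.9982 to 0.9989), with log2 differences of 0.64, 0.87 and 0.77. Cacna1c was at 403, 289 and 256 CPM in deletion scars and 195, 170.1 and 191 CPM in controls. Closest to Myot were Gstz1, an enzyme of tyrosine breakdown, Coq7, an enzyme of ubiquinone synthesis, and the transporter gene Slc47a1 (r from 0.9959 to 0.9986), with log2 differences of 0.47, 0.72 and 0.97. Closest to Aqp4 were Trappc9, Spast and Rab22a (r from 0.9905 to 0.9952), with log2 differences between 0.30 and 0.34. Closest to Myh2 were the heparan sulfate sulfotransferase gene Hs3st1 (r = 0.99), Armcx4 and Garnl3, with log2 differences of -0.63, -0.38 and -0.76.

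Ventricular cardiomyocyte genes were higher on average in the same deletion libraries. All 28 of 28 had positive log2 differences, with a median of 0.87 against -0.02 over all genes, and the groups did not overlap in 11 (8.87% of all genes were separate in that direction). The summed level was 80295 to 173698 CPM in deletion scars and 47529 to 83532 CPM in controls, highest in deletion replicate 1 and, among controls, in control replicate 1. Tnnt2, cardiac troponin T, was at 16603, 13211 and 12396 CPM in deletion scars and 14750.4, 7922 and 8215 CPM in controls. No gene of this list passed with edgeR or DESeq2, and 11 had an unadjusted p below 0.05, against 8.34% of all genes. The part of cardiomyocyte content in the 5 genes was not tested beyond the ratios to Myh6.

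Z-disc genes other than Myot were also higher on average, 24 of 27, with a median log2 difference of 0.54 and separate groups in 6, where 8.87% of all genes were separate in that direction. None passed with edgeR or DESeq2, and 3 had an unadjusted p below 0.05, against 8.34% of all genes. Titin (Ttn), the giant spring of the sarcomere, was at 9458, 4761 and 4455 CPM in deletion scars, against 4341, 2721 and 2774 CPM in controls. Des, the muscle intermediate filament gene, overlapped between the groups (log2 difference 0.25 ± 0.34, SE). The relatives of myotilin, Mypn and Palld, differed by 0.71 ± 0.31 and 0.08 ± 0.16 (SE), where Myot differed by 2.55 ± 1.31 (SE). Smco4, named like Smco1 for its coiled coils, differed by 0.24 ± 0.42 (SE). In replicate 1 against the others, 17 of these 27 genes were higher with an adjusted p under the threshold in edgeR, against 9.45% of all genes, and 1 was lower. Mypn was among them (0.74, edgeR adjusted p = 0.019) and Palld was not (-0.13, edgeR adjusted p = 0.51). Other muscle lists showed the same. Of 28 ventricular cardiomyocyte genes 16 were called higher in replicate 1, and of 23 skeletal fibre genes 11, with 0 lower in both lists.

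Genes of skeletal muscle fibres did not share 1 direction. Of 23 tested members of a list of 30, 13 were higher and 10 lower in deletion scars, with a median of 0.09, and the groups were separate in 4 with deletion higher and in 3 with deletion lower (8.87% and 8.6% of all genes). Skeletal alpha-actin (Acta1), which the heart also expresses, was at 1807, 201 and 212 CPM in deletion scars, against 256, 74.9 and 89.9 CPM in controls, and overlapped between the groups. Muscle enolase (Eno3), also active in heart, was at 1082, 444 and 322 CPM in deletion scars, against 310, 148 and 213 CPM in controls, with separate groups. The other members without overlap were picked with their values in view. Higher in deletion scars were Pgam2, the muscle phosphoglycerate mutase (log2 difference 1.15 ± 0.43, SE), Mybpc2, the fast myosin binding protein C (1.24 ± 0.50), and Actn3, the fast-fibre alpha-actinin (0.60 ± 0.22). Lower were the fast troponin genes Tnnt3 (-1.30 ± 0.49) and Tnni2 (-1.46 ± 0.50) and parvalbumin (Pvalb, -0.86 ± 0.39). Mybpc2 was at 85.3, 25.7 and 25.8 CPM in deletion scars, against 22.98, 17.2 and 17.6 CPM in controls. Tnnt3 was at 3.80, 2.05 and 3.78 CPM in deletion scars, against 13.6, 5.96 and 4.27 CPM in controls. Tnni2 was at 1.43, 0.612 and 0.805 CPM in deletion scars, against 4.01, 1.83 and 1.92 CPM in controls. No member passed with edgeR or DESeq2, and 8 had an unadjusted p below 0.05, against 8.34% of all genes. Set against Myh6 within a library, 2 of the 23 were separate with deletion scars higher and 9 with deletion scars lower, where 0.575% of all genes were separate in the higher direction and 24.1% in the lower. Summed levels of the list were 1008 to 3999 CPM in deletion scars and 502 to 1064 CPM in controls. Acta1, Eno3 and Pgam2 made up most of this sum in every library, with 1807, 1082 and 791 CPM in deletion replicate 1. The sum therefore mainly follows these genes, while 10 of the 23 members were lower in deletion scars.

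Myh2 lies in a cluster of heavy chain genes on chromosome 11, where Myh3, Myh2, Myh1, Myh4, Myh8 and Myh13 follow each other on the plus strand from 67078300 to 67371586. Myh1 was at 12.5, 4.50 and 4.99 CPM in deletion scars, against 19.1, 9.18 and 6.26 CPM in controls (log2 difference -0.66 ± 0.55, SE). Myh4 differed by -0.18 ± 0.44, Myh8 by -1.07 ± 0.46, Myh3 by 0.09 ± 0.29 and Myh13 by 0.29 ± 0.27 (SE). Myh8, the perinatal chain, was highest in control replicate 2, with 15.8 CPM, and ranged over 4.12 to 9.07 CPM in the other 5 libraries. Myh2 was chosen for the size of its difference, so its place among these genes is a description, and reads could be split between such closely related sequences. Of the other heavy chains, Myh7b was at 304, 64.5 and 69.4 CPM in deletion scars, against 47.6, 10.5 and 29.9 CPM in controls (2.32 ± 0.80, SE), and Myh7, the beta chain, differed by 0.31 ± 0.30 (SE). The nonmuscle and smooth muscle chains Myh9, Myh10, Myh11 and Myh14 differed by -0.49, -0.13, -0.26 and 0.48. None of the 12 tested heavy chains of the list, Myh6 included, passed with edgeR or DESeq2. An unadjusted p below 0.05 was found for 2, against 8.34% of all genes.

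**Figure D5:**
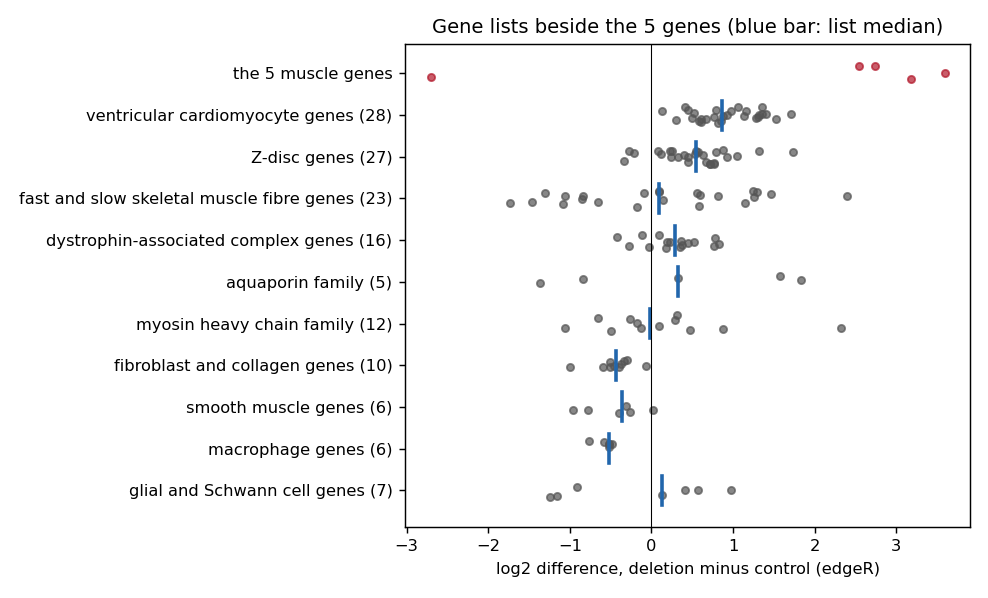
Log2 difference (deletion minus control, edgeR) of the 5 genes (red) and of the tested members of 10 gene lists (grey, number tested in brackets), with a blue bar at each list's median. Cardiomyocyte genes all lie above 0 with a median of 0.87, skeletal fibre genes spread to both sides, and Lrtm1, at 3.60, lies above every list member shown.

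Other aquaporins had no common direction. Aqp1, the abundant endothelial channel, was at 155, 73.0 and 97.1 CPM in deletion scars, against 85.3, 87.9 and 85.1 CPM in controls, and Aqp7 and Aqp8 differed by 1.58 ± 0.86 and 1.83 ± 1.17 (SE) with overlapping groups. Aqp2 and Aqp5 differed by -0.83 ± 0.91 and -1.37 ± 0.88 (SE). None of these 5 had an unadjusted p below 0.05, and DESeq2 called none. In the dystrophin-associated complex 12 of 16 genes were higher, with a median of 0.29, separate groups in 6 with deletion higher and in 1 with deletion lower (8.87% and 8.6% of all genes), and 0 calls with edgeR or DESeq2. At an unadjusted p below 0.05 there were 2, against 8.34% of all genes. Its most abundant members were Dag1, dystroglycan, and Sspn, sarcospan, with log2 differences of 0.19 ± 0.15 and 0.37 ± 0.18 (SE). Of 7 glial genes tested, 4 were higher and 3 lower, with a median of 0.13. The most abundant was the glutamate transporter gene Slc1a3, at 10.6, 30.8 and 29.7 CPM in deletion scars and 61.4, 30.3 and 42.7 CPM in controls.

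Markers of other cells also differed between groups or single libraries. The 10 fibroblast and collagen genes all had lower fitted values in deletion scars (median log2 difference -0.43), none separate between the groups. Their summed level was 5993, 14462 and 12461 CPM in deletion scars, against 13635, 15408 and 15772 CPM in controls, lowest in deletion replicate 1, the library with the highest summed level of the ventricular, Z-disc and skeletal fibre lists. Col3a1, a fibrillar collagen, and Dcn, the proteoglycan decorin, differed by -0.51 ± 0.40 and -0.31 ± 0.30 (SE). Macrophage genes were lower in 6 of 6 (median -0.53). Lyz2, lysozyme, differed by -0.51 ± 0.47 and Mrc1, the mannose receptor, by -0.48 ± 0.20 (SE). In 2 of the 6 the groups were separate in the lower direction, where 8.6% of all genes were. Smooth muscle genes were lower in 5 of 6 (median -0.36; Acta2, smooth muscle actin, -0.40 ± 0.33, SE), and 2 of the 6 were separate in the lower direction, where 8.6% of all genes were. Endothelial genes were higher in 3 and lower in 3 (median 0.02; Cdh5 0.38 ± 0.31 and Pecam1 0.06 ± 0.21, SE).

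Atrial genes were higher in 2 and lower in 2 (median -0.02; Nppa, the atrial natriuretic peptide gene, -0.39 ± 0.41, SE). Kcnj3, a potassium channel gene of atrial cells, was the other abundant member, with 94.8, 22.8 and 20.04 CPM in deletion scars, against 14.7, 8.37 and 11.2 CPM in controls. Conduction system genes had a median of -0.17 over 9 (Cacna1g 0.66 ± 0.27 and Irx3 -0.17 ± 0.20, SE). Of 19 listed regulators of skeletal myogenesis and the neuromuscular junction 5 passed the filter on low counts, with a median of -0.05 (Chrnb1 -0.53 ± 0.24 and Eya4 -0.39 ± 0.44, SE). Epicardial genes summed to 8.81, 9.22 and 61.3 CPM in deletion scars, against 125, 72.2 and 12.1 CPM in controls, and the groups overlapped, as for Upk3b (-1.77 ± 1.38, SE) and Wt1 (-1.16 ± 0.76, SE). Of the 4 adipocyte genes 1 was higher and 3 lower in deletion scars, with a median of -4.61, or -1.64 without control replicate 1. The groups were separate in 2 with deletion lower, where 8.6% of all genes were. Fabp4, which endothelial cells also express, was the higher one and differed by 0.58 ± 0.53 (SE). Cidec, a lipid droplet gene, was at 0.211, 0.699 and 0.121 CPM in deletion scars, against 19.3, 0.548 and 0.629 CPM in controls. Adipoq was at 0.0528, 0.350 and 0 CPM in deletion scars, against 16.3, 0.841 and 0.861 CPM in controls, so control replicate 1 held most of both. In these 9 lists and the glial list edgeR called 0 genes by genotype, and DESeq2 called S100b and Plin1. An unadjusted p below 0.05 was found for 9, against 8.34% of all genes. These were 3 of 4 adipocyte genes, 2 of 9 conduction genes and 1 each of 7 glial, 6 smooth muscle, 6 macrophage and 4 atrial genes. There were 0 among 10 fibroblast, 6 endothelial, 5 epicardial and 5 myogenic and neuromuscular genes. The part of these cell types in the levels of the 5 genes was not tested.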

How the data were processed

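Raw read counts per gene for 6 libraries were deposited by the authors in 1 table, with a RefSeq transcript and its length for each, per the file headers. The tools listed, per the submitters' processing notes, are Trim Galore, STAR and deepTools with build mm10, and the sources used here name no counting tool. Total RNA was made into ScriptSeq v2 libraries per the labels' protocols, and polyA selection is named in the series text only. The table also holds the authors' deposited normalised signal, called TMM per the file headers, a deposited log2 fold change between group means, and a deposited NOISeqBIO probability score.

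Counts were tested with edgeR 4.0.16 in R 4.3.3 (TMM, filterByExpr, robust quasi-likelihood F test, Benjamini-Hochberg adjusted p below 0.05), by genotype alone and, separately, for replicate 1 against replicates 2 and 3 with genotype as a term. CPM are TMM-scaled. Correlations and ratio differences used log2 CPM with a prior count of 2. So did differences within the replicate 1 libraries or within replicates 2 and 3, unless edgeR is named. Standard errors were derived from the F statistic. With 3 against 3 libraries an exact permutation test cannot go below p = 0.1, so none was used. DESeq2 1.42.0, other scaling, no filter, halved counts, a replicate block and leaving out libraries were tried.

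The genes, lists and naming rule were chosen with earlier results of these data known. The split of Myot by replicate was among them, so its p is no independent support. Named are the 5 genes, Myh6, Sox9, the 3 best correlated genes of each (mean of at least 1 CPM), measured relatives and the 2 most abundant genes of lists, of which 1 is not reported here. Rn45s, Xist, Ddx3y, Adipoq, Plin1, S100b, Tnnt3, Tnni2, Pvalb, Pgam2, Mybpc2 and Actn3 fall outside this rule and were picked with their values in view. Of 189 genes matched to GENCODE vM21, 56 share exonic bases with another gene, and their values are uncertain.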

Additional observations from a re-analysis of the deposited data

How the results depend on the processing

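The direction of each of the 5 genes' log2 difference, and of its ratio to Myh6, held under every alternative run. The genes were picked for large differences in these same libraries, which nearly fixes that outcome, so it is no separate support. For the ratio, a change of denominator shifts all genes alike and is no separate check of each gene. Without single libraries the log2 difference ranged from 2.76 to 4.62 for Lrtm1, 0.56 to 4.43 for Myot, 1.998 to 3.60 for Smco1, 2.28 to 3.04 for Aqp4 and -3.16 to -2.41 for Myh2. It moved by more than the spread between replicates for Myot without deletion replicate 1 (0.56) and for Smco1 without deletion replicate 1 (1.998). The same held for Smco1 in replicates 2 and 3 alone (2.06 with edgeR). It also held for Aqp4 in the replicate 1 libraries alone (3.34 in mean log2 CPM). Genes called by genotype numbered 0 with edgeR, 1 with a term for replicate 1 and 51 with DESeq2. Genes called between replicate 1 and the others numbered 2110 with edgeR and 4047 with DESeq2, and 0 to 1796 without single libraries. The cause was not tested. Over the alternatives the median log2 difference ranged from 0.49 to 1.14 for ventricular, 0.20 to 0.80 for Z-disc and -0.04 to 0.50 for skeletal fibre genes.

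With the replicate number as a block, edgeR called 0 genes by genotype, and the 5 genes differed by 3.87 (Lrtm1), 2.48 (Myot), 2.71 (Smco1), 2.59 (Aqp4) and -2.39 (Myh2). Deviations of same-numbered libraries correlated at 0.48, 0.0131 and 0.18 for replicates 1 to 3, and only replicate 1 correlated best with its own number, so the numbers do not show pairs. Aqp4, with 4 to 76 counts, was limited by depth.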
